A study of Mus musculus with 9 samples.

Results

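Motile cilia axoneme genes were 96 of the 32671 genes in the count table of 9 whole-lung RNA-seq libraries from C57BL/6 mice. The set was chosen by name: symbols that begin with Dnah, Dnai, Dnaaf, Cfap, Rsph, Drc or Odad and a number, and Hydin, Foxj1, Ccdc39, Ccdc40 and Dynlrb2. The name, not the biology, put a gene in the set, so it also held an antisense transcript, Dnah2os, and some Cfap genes with no known place in the axoneme. Of the 96 genes, 95 passed the filter on low counts and were tested among 20794 genes. The gene left out was Rsph6a, a radial spoke gene known from testis, with 4 counts in LNP replicate 2 and 0 counts in each other library, where 3 counts per library would bound a count of 0.

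All mice were wild type, and all lungs were taken at day 21. The LNP group was challenged with bleomycin, a DNA-damaging drug that scars the lung, and treated with inhaled lipid nanoparticles named mCas9/gSting@DOPS. The bleomycin group was challenged with bleomycin alone, and the control group was given saline. Each group had 3 libraries. The sources used here give no dose, route of bleomycin, start of treatment, age or sex, and no group given particles without this cargo was analysed here. The labels do not say that each library came from a separate animal, so the tests speak only of variation among these libraries.

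Motile cilia are the beating hairs of multiciliated cells, which line the airways beside club cells and carry mucus out of the lung. Their core, the axoneme, is a ring of doublet microtubules around a central pair. Outer and inner arm dyneins bend it, while radial spokes, the nexin-dynein complex and the central pair set when each arm pulls. The arms are put together in the cytoplasm by assembly factors before they enter the cilium. FOXJ1, a forkhead factor, and the RFX factors turn on most of these genes, and RFX proteins bind a box made of inverted arms near the gene start.

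The proximal promoters are shown first, as background to the values that follow. Whether their letters bear on those values was not tested. RefSeq windows (GRCm38.p6) of 300 bases, from 250 before to 50 after the gene start, were matched to 74 of the 96 genes, some with more than 1 start, which gave 80 windows; 22 genes had no window. On either strand, the arm GTTGCC was found in 28 of the 80 windows (35.0%) and in 12.5% of all 32851 windows. The paired box searched, GTNNCC and GGNNAC with 0 to 3 bases between them, was found in 14 of the 80 windows (17.5%) and in 3.86% of all windows. A stricter pair of arms, GTTGC and GCAAC with 2 to 5 bases between them, was added after the windows of Hydin and Dnai2 had been read, and it was found in 12 of the 80 windows (15.0%) and in 0.451% of all windows. The windows of Hydin and Dnai2 count among the 12, so the share of 15.0% was partly set by the choice of the pattern. The stricter pair overlaps the paired box, and 3 genes held both. A forkhead site, TGTTTAC or TGTTTGT, was found in 5 of the 80 windows (6.25%) and in 9.95% of all windows. A match is a run of letters, not a bound site. The 12 genes with the stricter pair read as follows from 5′ to 3′, with the arms in capitals, and Cfap298 held it at 2 places.
Dnah6: GTTGCtaaGCAAC
Hydin: GTTGCtgtgGCAAC
Cfap44: GTTGCtatgGCAAC
Dnah7a: GTTGCttaGCAAC
Dnah7c: GTTGCttaGCAAC
Dnai2: GTTGCtagGCAAC
Dnah7b: GTTGCttaGCAAC
Dynlrb2: GTTGCctaGCAAC
Cfap90: GTTGCcagGCAAC
Cfap20dc: GTTGCctggGCAAC
Rsph3b: GTTGCtcgGCAAC
Cfap298: GTTGCccctgGCAAC
Cfap298: GTTGCccggGCAAC
Among them, Hydin and Cfap44 serve the central pair and the inner arm tether, Dnah6 and the Dnah7 copies are inner arm motors, Dnai2 and Dynlrb2 are small dynein chains, and Rsph3b is a radial spoke gene. Dnah7a, Dnah7b and Dnah7c, near-identical copies, shared the same letters, and each counts among the 12. In Hydin the arms began 21 bases before the gene start, in Dnai2 33 bases and in Dynlrb2 51 bases. The whole windows of these 3 genes, and of Odad3 for a paired box outside the stricter form, are given with the box in capitals.
Hydin (chr8:110266727-110267026, plus strand): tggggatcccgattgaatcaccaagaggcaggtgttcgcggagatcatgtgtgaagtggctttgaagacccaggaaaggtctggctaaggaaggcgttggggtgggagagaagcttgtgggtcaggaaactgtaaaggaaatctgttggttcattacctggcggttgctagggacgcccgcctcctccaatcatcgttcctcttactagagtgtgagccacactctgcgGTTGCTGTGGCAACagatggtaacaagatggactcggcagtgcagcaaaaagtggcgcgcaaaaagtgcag
Dnai2 (chr11:114727169-114727468, plus strand): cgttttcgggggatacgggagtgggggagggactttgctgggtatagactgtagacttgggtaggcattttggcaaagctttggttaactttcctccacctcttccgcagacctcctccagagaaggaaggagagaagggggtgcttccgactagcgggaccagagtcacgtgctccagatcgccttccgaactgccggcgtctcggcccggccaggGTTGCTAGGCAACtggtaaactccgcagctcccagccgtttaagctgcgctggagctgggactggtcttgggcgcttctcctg
Dynlrb2 (chr8:116504765-116505064, plus strand): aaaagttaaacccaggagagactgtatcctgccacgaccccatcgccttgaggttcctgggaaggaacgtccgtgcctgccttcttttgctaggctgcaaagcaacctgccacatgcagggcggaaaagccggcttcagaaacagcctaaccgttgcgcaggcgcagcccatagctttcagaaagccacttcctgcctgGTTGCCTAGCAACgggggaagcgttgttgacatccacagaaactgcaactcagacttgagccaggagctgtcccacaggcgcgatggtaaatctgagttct
Odad3 (chr9:22002585-22002884, minus strand): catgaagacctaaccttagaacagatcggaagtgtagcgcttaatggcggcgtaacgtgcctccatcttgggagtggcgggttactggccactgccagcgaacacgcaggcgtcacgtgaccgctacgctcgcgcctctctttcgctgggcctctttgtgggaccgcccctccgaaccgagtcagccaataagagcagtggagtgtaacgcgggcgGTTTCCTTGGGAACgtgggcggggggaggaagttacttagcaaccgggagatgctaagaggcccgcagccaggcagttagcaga
The size of change beside these letters is given with no test. The median log2 fold change of bleomycin against control was -1.69 in the 12 genes with the stricter pair. It was -1.72 in the 61 tested genes with a window and without that pair. The medians were -1.25 in the 14 genes with the paired box and -1.73 in the other 59. With the arm GTTGCC they were -1.85 in 27 genes and -1.71 in the other 46. With the forkhead site they were -0.87 in only 5 genes and -1.765 in the other 68.

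Libraries held 56047830 to 69404903 gene counts. Axoneme genes took 0.109% to 0.155% of counts in LNP libraries, 0.0669% to 0.0714% in bleomycin libraries and 0.165% to 0.196% in control libraries. LNP replicate 3 stood apart: 12 skeletal muscle genes in the table summed to 10110 CPM, counts scaled to a common library size, in it and to 10.5 to 60.6 CPM in the other 8 libraries, and 12 genes of squamous epithelium, such as that of the oesophagus, summed to 1795 CPM in it and to 8.35 to 19.7 CPM in the others. Counts of called axoneme genes in the comparisons with LNP are therefore also given without it. Sting1, the gene whose name the particle carries, had 44.3 to 62.0 CPM in LNP, 40.5 to 53.8 CPM in bleomycin and 18.4 to 23.9 CPM in control libraries, with a log2 fold change of 0.22 for LNP against bleomycin (edgeR, adjusted p = 0.48). A transcript count does not measure editing of the gene.

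The first comparison asked what bleomycin did to the axoneme genes. Of the 95 tested, 81 fell with bleomycin against control, 2 rose (Cfap36 and Dnah2os) and 12 did not pass the test, at an adjusted p under 0.05 from edgeR's quasi-likelihood test. Over all genes tested, 18.5% fell and 15.2% rose. The median log2 fold change was -1.73, against -0.05 over all genes. Of the 95 genes, 37 fell by 2 or more on the log2 scale, and 34 lay between -2 and -1. Sizes of change given in sentences are log2 fold changes throughout. All 3 bleomycin libraries lay below all 3 control libraries for 87 genes, against 29.6% of all genes. Whole-lung RNA cannot tell fewer multiciliated cells from less axoneme RNA in each cell. With each of the 9 libraries left out in turn, 69 of the 95 genes were called every time.

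The second comparison set treated lungs beside lungs given bleomycin alone. With LNP against bleomycin, 55 of the 95 genes rose and 0 fell, against 4.28% of all genes that rose and 1.87% that fell. At an unadjusted p under 0.05, 78 were higher and 1 was lower, and DESeq2 called 74 higher and 1 lower. The median log2 fold change was 1.27, against 0.04 over all genes, and 92 of the 95 pointed upward. All 3 LNP libraries lay above all 3 bleomycin libraries for 79 genes, against 15.4% of all genes. The count of calls changed with the libraries in the fit. It was 13 without LNP replicate 1, 20 without LNP replicate 2, 12 without bleomycin replicate 1, 1 without bleomycin replicate 2 and 35 without bleomycin replicate 3, and a fit of only the LNP and bleomycin groups gave 17. Without LNP replicate 3, the library with muscle RNA, it was 75. Leaving out control replicates 1, 2 and 3, which share the estimate of spread, gave 42, 51 and 39 axoneme genes called in either direction. Calls over all genes also varied, from 102 to 5284 with a library left out, against 1280 with all libraries. The sign of the change was steadier than the call, and it was the same in all 9 such fits for 92 genes. Dnai2, an outer arm intermediate chain, was called in each of them.

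The third comparison set treated lungs beside saline lungs. With LNP against control, 5 of the 95 genes fell (Hydin, Cfap74, Cfap65, Dnah10 and Dnai7) and 0 rose, against 3.08% of all genes that fell and 4.95% that rose. At an unadjusted p under 0.05, 33 were lower and 0 were higher, and DESeq2 called 15 lower and 0 higher. The median log2 fold change was -0.48, against -0.003 over all genes, and 87 of the 95 pointed downward. All 3 LNP libraries lay below all 3 control libraries for 46 genes, against 15.2% of all genes. The calls changed with the libraries in the fit here too, with 4 without LNP replicate 1 and 1 without LNP replicate 2. There were 6, 1 and 5 without bleomycin replicates 1, 2 and 3, and 1, 3 and 0 without control replicates 1, 2 and 3. Calls over all genes ran from 717 to 2332 with a library left out, against 1671 with all libraries. Without LNP replicate 3, 4 genes were called and the median log2 fold change was -0.26. A p that misses the threshold does not show that the other 90 genes were back at the control level. Each pair of the 3 comparisons shares the libraries of a group, so their changes are not independent of each other.

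Summed over the 96 genes, LNP libraries held 1483, 1408 and 1060 CPM, bleomycin libraries 736.4, 724.6 and 714.4 CPM and control libraries 1615, 1829 and 1883 CPM. The groups did not overlap in this sum. Relative to the control mean, LNP libraries averaged 74.2% and bleomycin libraries 40.8%. The middle gene stood at 71.8% of its control mean in LNP and at 30.0% in bleomycin libraries, and at 81.5% in LNP without replicate 3.

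**Figure D1:**
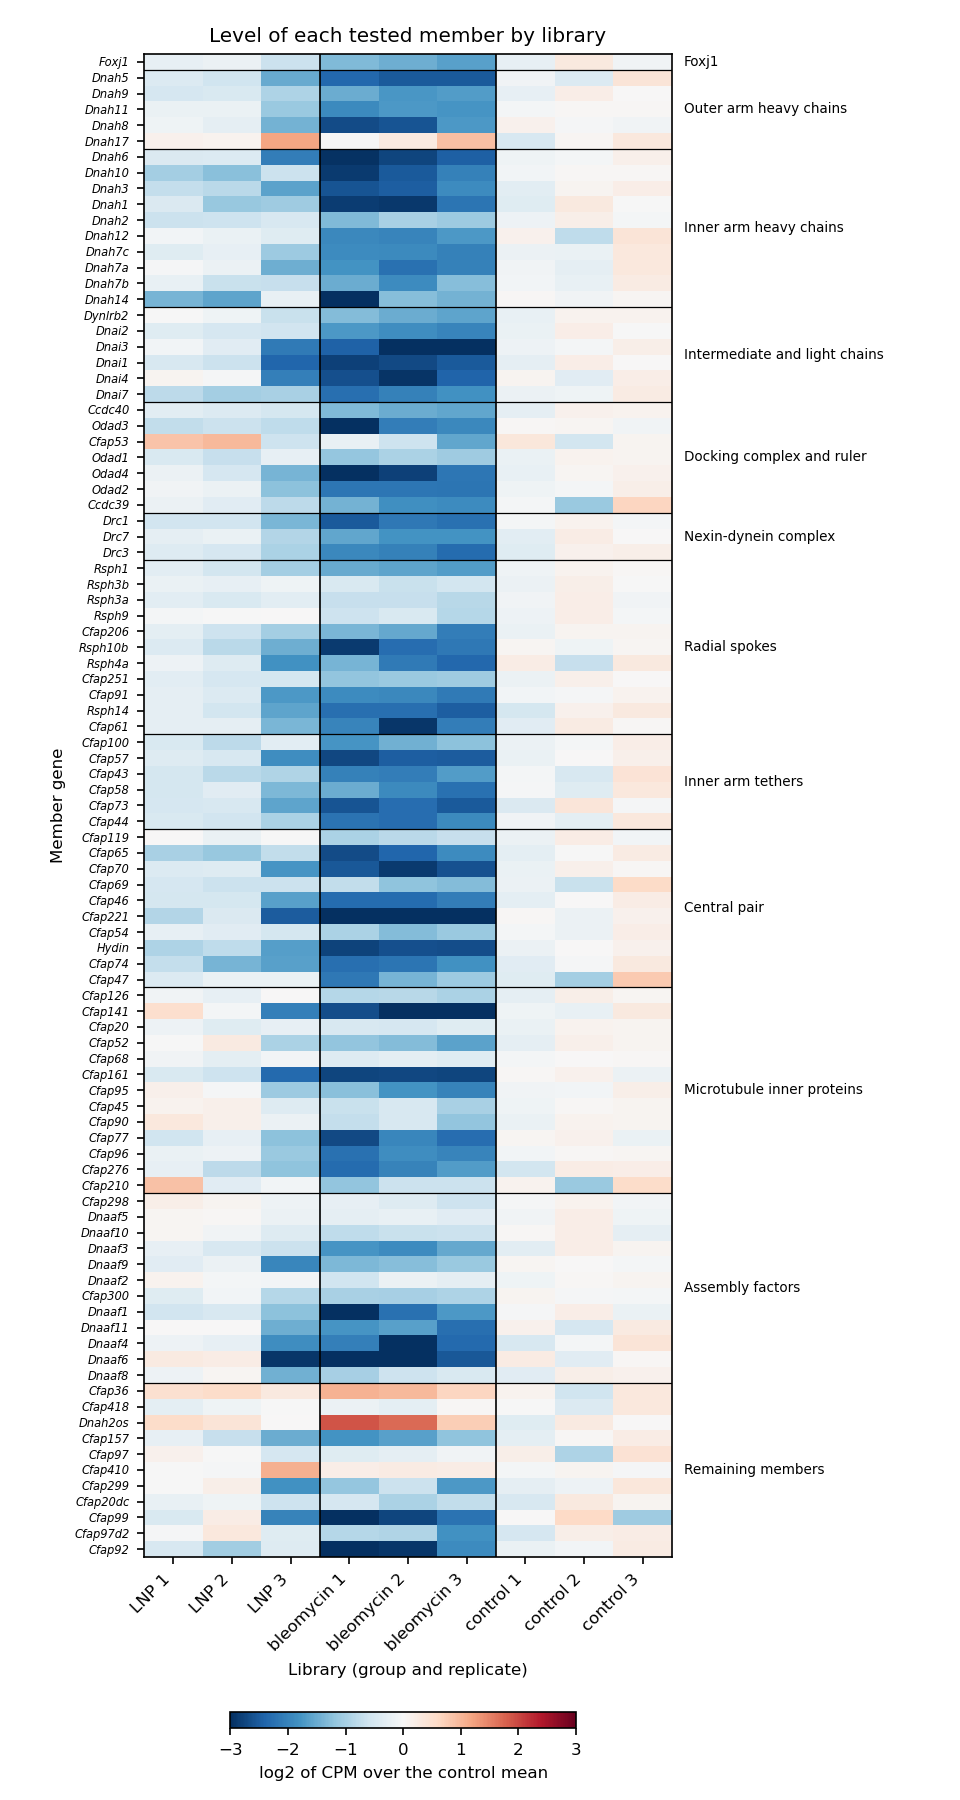
Level of each of the 95 tested axoneme genes (rows, grouped by role) in each library (columns), as the log2 of its CPM over its control mean, with blue below and red above that mean and the colour scale ending at the values on its bar. Most rows are darkest blue in the 3 bleomycin libraries, paler in LNP replicates 1 and 2 and between these in LNP replicate 3, while Cfap36 and Dnah2os are red in bleomycin.

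Foxj1, which switches on the motile cilia program, had 127, 132 and 95.5 CPM in LNP libraries, 60.4, 54.2 and 48.6 CPM in bleomycin libraries and 126, 185 and 139.6 CPM in control libraries. It fell in bleomycin against control by 1.47 on the log2 scale (SE 0.19, adjusted p = 0.00056) and rose in LNP against bleomycin by 1.12 (SE 0.18, adjusted p = 0.013). LNP and control libraries overlapped, with a log2 fold change of -0.35 (adjusted p = 0.29). The bleomycin libraries were the 3 lowest of the 9.

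Outer arm heavy chains are the motors that set beat frequency. Of 5 tested, 4 fell with bleomycin and the same 4 rose with LNP against bleomycin, while Dnah17 passed neither test. Dnah17 overlaps Pgs1 on the opposite strand, which had 59.9 times its mean CPM. Pgs1 had a mean of 156 CPM in bleomycin and 102 CPM in control libraries. As the use of the strand in counting is not given, the value of Dnah17 is uncertain. Dnah5, whose loss in people is a common cause of primary ciliary dyskinesia, had 29.6, 25.9 and 13.9 CPM in LNP, 7.75, 6.86 and 6.86 CPM in bleomycin and 36.7, 29.8 and 51.5 CPM in control libraries. It fell by 2.46 in bleomycin against control on the log2 scale (SE 0.30, adjusted p = 0.00046) and rose by 1.69 in LNP against bleomycin (SE 0.29, adjusted p = 0.015). All LNP libraries lay above all bleomycin libraries, and replicate 3 was the lowest of the LNP group. Dnah9, its partner in the distal cilium, had 23.97, 24.7 and 18.0 CPM in LNP, 12.2, 10.1 and 10.6 CPM in bleomycin and 28.9, 39.1 and 34.0 CPM in control libraries. Dnah9 fell by 1.63 in bleomycin against control (SE 0.18, adjusted p = 0.0003). Per gene length, the ratio of the FPKM levels of Dnah9 and Dnah5 was 0.793, 0.935 and 1.27 in LNP, 1.54, 1.44 and 1.51 in bleomycin and 0.773, 1.29 and 0.647 in control libraries, and the 3 bleomycin ratios were the highest of the 9. Dnah11, the partner of DNAH5 in the proximal cilium, had 15.4, 15.3 and 8.12 CPM in LNP, 4.69, 5.29 and 5.11 CPM in bleomycin and 16.7, 18.0 and 17.8 CPM in control libraries.

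Inner arm heavy chains shape the bend of the cilium. All 10 fell with bleomycin, with a median log2 fold change of -1.97, and 7 rose with LNP against bleomycin, with a median over the 10 of 1.45. Dnah6 had 39.7, 40.0 and 12.6 CPM in LNP, 6.83, 7.98 and 9.72 CPM in bleomycin and 49.2, 51.3 and 59.8 CPM in control libraries. It fell by 2.71 in bleomycin against control (SE 0.38, adjusted p = 0.00091) and rose by 1.91 in LNP against bleomycin (SE 0.37, adjusted p = 0.021). LNP replicates 1 and 2 lay near the control libraries, and replicate 3 lay near the bleomycin libraries. Dnah10 did not share that split. Its LNP libraries held 14.4, 12.4 and 18.7 CPM, with replicate 3 the highest, against 4.01, 5.12 and 7.15 CPM in bleomycin and 27.8, 29.9 and 30.3 CPM in control libraries. It was lower in LNP than in control by 0.95 on the log2 scale (SE 0.23, adjusted p = 0.031). Dnah3 had 12.1, 11.36 and 6.52 CPM in LNP, 3.29, 3.55 and 5.37 CPM in bleomycin and 15.9, 20.8 and 22.7 CPM in control libraries, and its transcripts are described below. Dnah7a, Dnah7b and Dnah7c are near-identical copies, and how reads were split among them is not given, so their single values are uncertain. Their log2 fold changes in bleomycin against control were -2.01, -1.53 and -1.94, and all 3 passed the test.

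Intermediate and light chains anchor the motors and tie them to their cargo or doublet. All 6 fell with bleomycin, with the lowest median of any role at -2.33, and all 6 rose with LNP against bleomycin, with a median of 1.54. Dnai2 held 20.7, 19.02 and 18.0 CPM in LNP, 8.18, 7.42 and 6.80 CPM in bleomycin and 23.3, 30.8 and 26.5 CPM in control libraries. It fell by 1.85 in bleomycin against control (SE 0.16, adjusted p = 0.00012) and rose by 1.37 in LNP against bleomycin (SE 0.16, adjusted p = 0.0023). The 3 groups formed 3 separate bands, with LNP between bleomycin and control. Dnai3, an inner arm intermediate chain, had 19.4, 16.3 and 4.76 CPM in LNP, 3.83, 2.17 and 2.00 CPM in bleomycin and 18.7, 19.8 and 23.4 CPM in control libraries. LNP replicate 3 lay just above the bleomycin libraries, and the rise over bleomycin was 2.34 (SE 0.47, adjusted p = 0.022).

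Dynlrb2 encodes the ciliary form of the roadblock light chain, and Dynlrb1 encodes the form used by cytoplasmic dynein in every cell. Dynlrb2 had 31.5, 29.4 and 20.3 CPM in LNP, 13.01, 11.38 and 10.7 CPM in bleomycin and 27.2, 34.6 and 34.2 CPM in control libraries. It fell by 1.45 in bleomycin against control (SE 0.19, adjusted p = 0.00068) and rose by 1.21 in LNP against bleomycin (SE 0.19, adjusted p = 0.011). Dynlrb1 had a log2 fold change of 0.00 in bleomycin against control and of 0.17 in LNP against bleomycin. The ratio of their FPKM levels, Dynlrb2 over Dynlrb1, was 0.564, 0.532 and 0.501 in LNP, 0.286, 0.271 and 0.227 in bleomycin and 0.649, 0.787 and 0.706 in control libraries. The 3 groups did not overlap in this ratio, and LNP replicate 3 stayed near its group.

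Docking complex and ruler genes fix where the arms sit on the doublet. Of 7 tested, 6 fell with bleomycin and 4 rose with LNP against bleomycin. Ccdc40, part of the molecular ruler, had 31.1, 29.0 and 26.9 CPM in LNP, 15.4, 13.7 and 13.2 CPM in bleomycin and 31.98, 42.1 and 41.7 CPM in control libraries. It fell by 1.45 in bleomycin against control (SE 0.15, adjusted p = 0.00024) and rose by 1.04 in LNP against bleomycin (SE 0.15, adjusted p = 0.0083). Its partner in the ruler, Ccdc39, was less even among control libraries, at 7.23, 3.47 and 11.8 CPM, with 6.59, 5.94 and 4.34 CPM in LNP and 2.79, 2.11 and 2.04 CPM in bleomycin. Ccdc39 passed the test in bleomycin against control (log2 fold change -1.70, adjusted p = 0.01) and not in LNP against bleomycin (1.28, adjusted p = 0.086). It overlaps Ttc14 on the opposite strand, which had 3.23 times its mean CPM, and whether the counts used the strand is not given. Odad3, a docking complex gene, had 7.22, 7.63 and 7.07 CPM in LNP, 1.38, 2.83 and 3.14 CPM in bleomycin and 12.2, 12.5 and 11.2 CPM in control libraries. Its LNP libraries formed a tight band between the others. Cfap53 passed no test, with 12.6, 13.8 and 4.57 CPM in LNP, 5.96, 4.50 and 2.37 CPM in bleomycin and 8.81, 4.77 and 7.35 CPM in control libraries.

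The nexin-dynein regulatory complex links neighbouring doublets. Its 3 genes all fell with bleomycin and all rose with LNP against bleomycin. Drc1 had 21.4, 21.5 and 12.3 CPM in LNP, 5.60, 7.20 and 6.80 CPM in bleomycin and 30.7, 34.5 and 30.5 CPM in control libraries. It fell by 2.29 in bleomycin against control (SE 0.23, adjusted p = 0.00021) and rose by 1.49 in LNP against bleomycin (SE 0.22, adjusted p = 0.0092). Its 3 groups did not overlap. Drc3 had 24.2, 22.1 and 16.2 CPM in LNP, 8.21, 7.71 and 6.39 CPM in bleomycin and 24.5, 34.5 and 35.4 CPM in control libraries. Drc7 had 24.1, 25.1 and 15.8 CPM in LNP, 9.80, 8.37 and 8.34 CPM in bleomycin and 23.5, 34.1 and 29.4 CPM in control libraries, where LNP and control overlapped.

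Radial spokes carry signals from the central pair to the dyneins. All 11 tested genes fell with bleomycin and 8 rose with LNP against bleomycin. Rsph1, of the spoke head, had 37.9, 32.6 and 23.6 CPM in LNP, 16.7, 15.8 and 15.0 CPM in bleomycin and 43.2, 50.8 and 48.7 CPM in control libraries. It fell by 1.59 in bleomycin against control (SE 0.18, adjusted p = 0.00033) and rose by 0.99 in LNP against bleomycin (SE 0.18, adjusted p = 0.016). Rsph3a and Rsph3b, copies of a spoke stalk gene whose single values are uncertain, fell by 0.74 and 0.55 in bleomycin against control and had adjusted p-values of 0.11 and 0.12 in LNP against bleomycin. Rsph3b had 34.7, 34.0 and 36.9 CPM in LNP, 29.4, 25.3 and 27.5 CPM in bleomycin and 35.4, 45.2 and 39.6 CPM in control libraries.

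Inner arm tethers hold the inner dyneins to the doublet. All 6 fell with bleomycin, with a median log2 fold change of -2.02, and 5 rose with LNP against bleomycin. Cfap57 had 12.2, 11.5 and 4.41 CPM in LNP, 2.41, 2.87 and 2.84 CPM in bleomycin and 14.0, 16.1 and 17.9 CPM in control libraries. Cfap43, whose protein forms a tether with CFAP44, had 17.2, 14.1 and 13.3 CPM in LNP, 6.10, 5.84 and 7.69 CPM in bleomycin and 23.8, 17.7 and 32.6 CPM in control libraries. Cfap100 had 12.1, 9.61 and 13.4 CPM in LNP, 4.85, 6.08 and 7.13 CPM in bleomycin and 14.8, 16.03 and 19.1 CPM in control libraries, and it overlaps Zxdc on the opposite strand. LNP replicate 3 was the highest of its group for Cfap100 and the lowest for Cfap57.

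The central pair sets the plane of the beat. All 10 of its genes fell with bleomycin, 7 rose with LNP against bleomycin, and 3 of the 5 genes that fell in LNP against control were among them. Hydin, a giant protein of the central pair whose loss in mice leads to hydrocephalus, had 13.6, 15.1 and 8.19 CPM in LNP, 3.74, 4.14 and 4.10 CPM in bleomycin and 22.7, 26.1 and 28.3 CPM in control libraries. It fell by 2.69 in bleomycin against control (SE 0.23, adjusted p = 0.00012) and rose by 1.62 in LNP against bleomycin (SE 0.23, adjusted p = 0.0077). It was lower in LNP than in control by 1.06 (SE 0.22, adjusted p = 0.018), a call kept in 8 of the 9 fits that left out a library and lost without control replicate 3. Its 3 groups formed separate bands. Cfap65 had 18.5, 16.6 and 21.9 CPM in LNP, 5.70, 7.05 and 9.84 CPM in bleomycin and 29.7, 36.2 and 43.6 CPM in control libraries. Cfap74 had 6.44, 4.01 and 3.40 CPM in LNP, 2.20, 2.31 and 3.02 CPM in bleomycin and 8.37, 10.3 and 13.04 CPM in control libraries, with LNP replicate 1 nearer to the lowest control library and LNP replicates 2 and 3 nearer to the bleomycin ones. Both were lower in LNP than in control, with log2 fold changes of -0.94 (adjusted p = 0.032) and -1.195 (adjusted p = 0.033), and each was called in 3 of the 9 fits that left out a library. Both calls were lost without LNP replicate 2, bleomycin replicate 2 or any 1 of the control libraries, that of Cfap65 also without LNP replicate 1 and that of Cfap74 also without LNP replicate 3. The other genes that fell in LNP against control were Dnah10 and Dnai7, a dynein chain named here after its values were seen, at -0.92 (adjusted p = 0.026), which were called in 3 and 5 of the 9 such fits.

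Cfap221, another central pair gene, had 2.499, 3.44 and 0.819 CPM in LNP, 0.475, 0.388 and 0.499 CPM in bleomycin and 4.72, 4.06 and 5.05 CPM in control libraries. Its log2 fold change was -3.34 in bleomycin against control (SE 0.48, adjusted p = 0.00099) and 2.31 in LNP against bleomycin (SE 0.47, adjusted p = 0.023). Cfap70 had 10.8, 10.9 and 4.23 CPM in LNP, 2.44, 1.96 and 2.36 CPM in bleomycin and 12.5, 15.98 and 14.6 CPM in control libraries. Cfap119 moved least of the central pair genes named here, with a log2 fold change of -0.81 in bleomycin against control (adjusted p = 0.0038), and it overlaps Phkg2 on the opposite strand, which had 1.60 times its mean CPM.

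Microtubule inner proteins line the inside of the doublets and stiffen them. Of 13, 12 fell with bleomycin and 7 rose with LNP against bleomycin, and the sizes were spread widely, with log2 fold changes of -3.13 to -0.35 in bleomycin against control. Cfap141 had the largest change, with 13.5, 9.13 and 2.30 CPM in LNP, 1.51, 0.792 and 0.952 CPM in bleomycin and 8.60, 8.14 and 11.6 CPM in control libraries. It rose by 2.94 in LNP against bleomycin (SE 0.56, adjusted p = 0.02), with LNP replicate 1 above all controls and replicate 3 just above bleomycin. Cfap141 overlaps 2 genes on the same strand with higher counts, so its value is uncertain. Cfap20, which sits at the seam of the doublet and is also found in other cilia, had 39.3, 33.9 and 36.8 CPM in LNP, 31.3, 31.1 and 34.4 CPM in bleomycin and 38.5, 47.0 and 46.3 CPM in control libraries. It fell by 0.45 in bleomycin against control (SE 0.13, adjusted p = 0.024). Cfap126, which also positions basal bodies in mouse, had 32.9, 29.9 and 35.96 CPM in LNP, 19.6, 20.1 and 18.5 CPM in bleomycin and 29.7, 40.1 and 36.8 CPM in control libraries, and its LNP libraries lay within the control range.

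**Figure D2:**
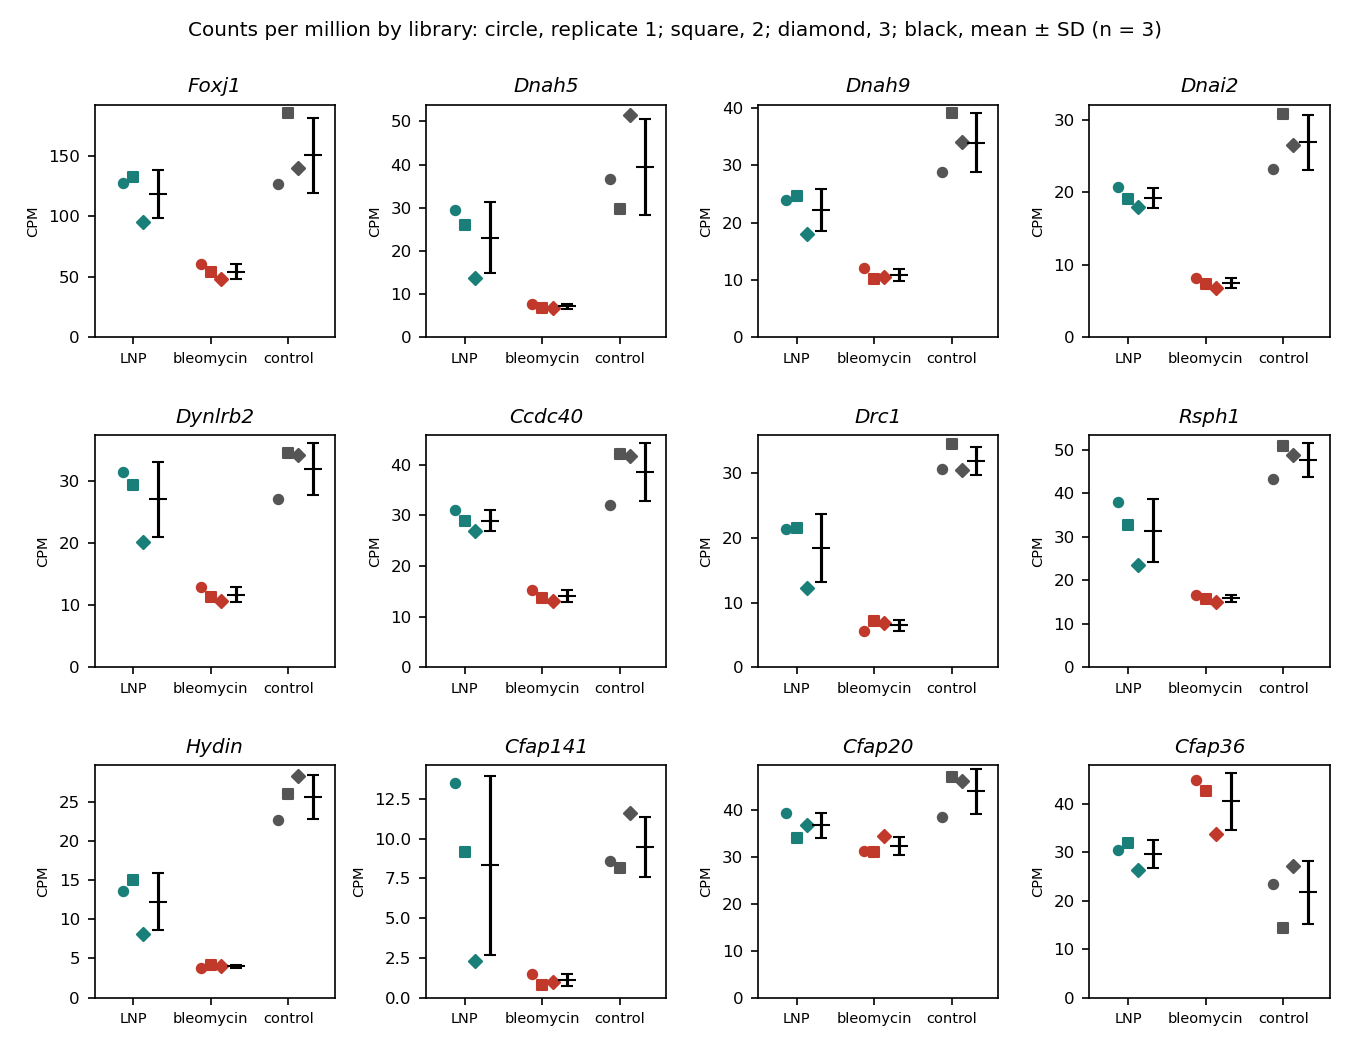
CPM (vertical axes, each starting at 0) of 12 axoneme genes in LNP, bleomycin and control libraries, with a marker shape for each replicate and the mean ± SD (n = 3) in black beside each group. For 11 of the 12 genes the bleomycin libraries lie below all control libraries, while for Cfap36 they lie above them, and LNP replicate 3 (diamond) is lowest of its group for most genes but not for Cfap20.

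Assembly factors fold the dyneins and join their chains before they reach the cilium, and they had the smallest medians of the 11 roles in both comparisons with bleomycin. Of 12, 8 fell with bleomycin, with a median log2 fold change of -1.11, and 2 rose with LNP against bleomycin, with a median of 0.59. The 3 with the highest FPKM are genes that many cells express. Cfap298 had 39.1, 36.9 and 31.1 CPM in LNP, 29.2, 26.3 and 22.4 CPM in bleomycin and 33.9, 37.3 and 32.9 CPM in control libraries, and its log2 fold change of -0.42 in bleomycin against control did not pass (adjusted p = 0.05 as rounded). Dnaaf5 had a log2 fold change of -0.28 (adjusted p = 0.14), and Dnaaf10 fell by 0.69 (adjusted p = 0.015). Dnaaf10 overlaps Pno1 and Ppp3r1, both with more counts. At the other end, Dnaaf6 had 1.28, 1.23 and 0.139 CPM in LNP, 0, 0 and 0.181 CPM in bleomycin and 1.24, 0.833 and 1.09 CPM in control libraries. The 0.181 CPM were 12 counts, so its fitted log2 fold change of -4.06 (SE 1.22, adjusted p = 0.029) rests on few reads. It was called in 4 of the 9 fits that left out a library.

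The remaining 11 genes are those that the name rule took in without an axonemal role used here. With bleomycin 4 fell, 2 rose and 5 did not pass, and 1 rose with LNP against bleomycin. Among all genes tested, 18.5% fell and 15.2% rose with bleomycin, and 4.28% rose with LNP against bleomycin. The counts of genes that rose lie near those shares and are not read as a result about the 11 genes. Cfap36, which is expressed in many tissues, had 30.4, 31.9 and 26.4 CPM in LNP, 44.9, 42.7 and 33.7 CPM in bleomycin and 23.5, 14.4 and 27.1 CPM in control libraries. It rose by 0.90 in bleomycin against control (SE 0.22, adjusted p = 0.013), and its LNP libraries lay below all bleomycin libraries without passing the test (-0.45, adjusted p = 0.24). Dnah2os, antisense to the inner arm gene Dnah2, had 3.26, 2.91 and 2.23 CPM in LNP, 8.21, 7.17 and 3.72 CPM in bleomycin and 1.73, 2.66 and 2.25 CPM in control libraries. It rose by 1.52 in bleomycin against control (SE 0.33, adjusted p = 0.0073), while Dnah2, named here as its partner after its values were seen, fell by 1.12 (SE 0.17, adjusted p = 0.0012). As the use of the strand in counting is not given, reads of this pair may not have been told apart. Cfap418, known from the retina, had a log2 fold change of -0.14 in bleomycin against control (adjusted p = 0.62), and Cfap97 of -0.25 (adjusted p = 0.57). Cfap157 fell by 1.52 (SE 0.32, adjusted p = 0.0061).

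**Figure D3:**
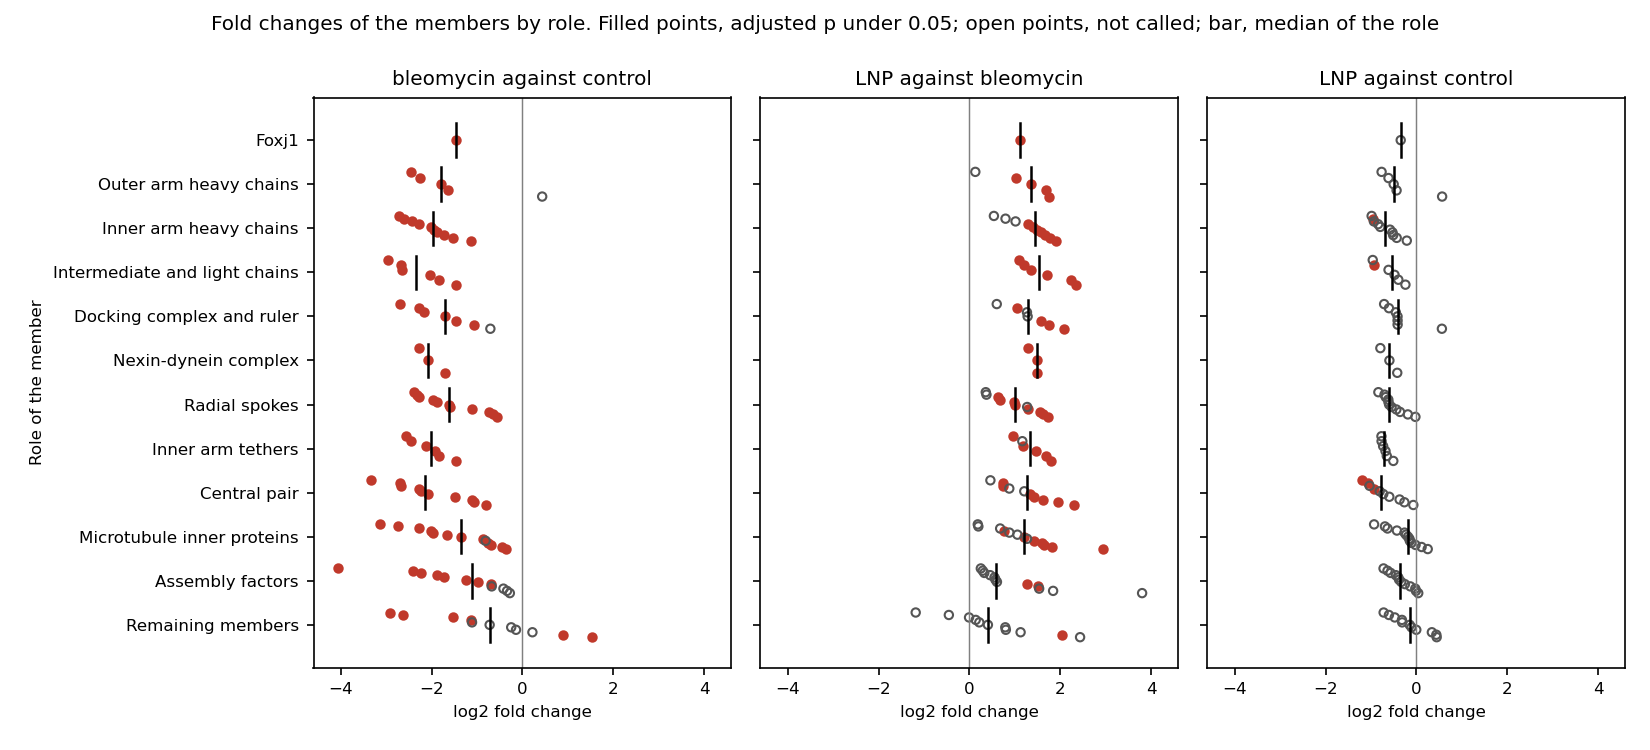
Log2 fold change (horizontal axes) of each tested axoneme gene by role (rows) in the 3 comparisons (panels), with filled points for an adjusted p under 0.05, open points for the rest and a bar at the median of the role. In bleomycin against control the role medians run from -2.33 for intermediate and light chains to -0.72 for the remaining genes, in LNP against bleomycin from 1.54 to 0.41 for the same 2 roles, and in LNP against control they lie between -0.77 and -0.15.

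LNP replicate 3 was the lowest of its group for 73 of the 95 genes (76.8%), against 42.5% of all genes tested. Its CPM over the mean of LNP replicates 1 and 2 had a median of 0.67, from 0.11 for Dnaaf6 to 2.42 for Dnah14, and lay below 0.5 for 31 genes. For 12 genes it lay at or below the highest bleomycin library, while LNP replicates 1 and 2 both lay above that library for 88 genes. The pair did not reach control throughout: both lay below the lowest control library for 47 genes and both within or above the control range for 38. The muscle and squamous genes were high in the same library, and their part in its low axoneme values was not tested. Being lowest for most genes was not particular to LNP replicate 3. Control replicate 1 was the lowest of its group for 58 of the 95 genes (61.05%), against 32.5% of all genes tested. Control replicate 2 lay below 0.5 of the mean of the other controls for 5 genes, Ccdc39, Cfap47, Cfap97, Cfap210 and Dnah12.

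Transcript counts bore on a few genes. For 88 of the 95 genes the same transcript held the most counts in all 3 groups, and 17 genes had counts in 1 transcript only. Cfap57 was among the 7 with a change. Its transcript ENSMUST00000081921 had 9.31, 8.89 and 0 CPM in LNP, 0, 0 and 0 CPM in bleomycin and 10.4, 7.77 and 7.08 CPM in control libraries, while ENSMUST00000071972 had 2.89, 2.62 and 4.41 CPM in LNP, 2.41, 2.87 and 2.84 CPM in bleomycin and 3.59, 8.31 and 10.8 CPM in control libraries. A 0 in estimated transcript counts can be a failed split between transcripts. In Dnah3, ENSMUST00000213149 had 0.0816, 0.106 and 18.4 CPM in the 3 control libraries, with the other long share in ENSMUST00000209154, so its transcripts switched between replicates of a group and are not compared. Of the 95 genes, 57 overlapped another gene, 50 of them on the opposite strand, and 20 overlapped a gene with a higher mean CPM.

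Other genes of multiciliated cells, such as tektins and sperm-associated antigens outside the name rule, were counted in the same way. Over all genes tested, 18.5% fell with bleomycin and 4.28% rose with LNP against bleomycin. Of 52 genes of this list tested, 47 fell with bleomycin (median log2 fold change -1.66), and 29 rose with LNP against bleomycin (median 1.21). Their sum was 2216, 2160 and 1225 CPM in LNP, 1169, 1103 and 1097 CPM in bleomycin and 2776, 3188 and 2792 CPM in control libraries. LNP replicate 3 lay near the bleomycin libraries in this sum, of which Sec14l3 alone was a large part. Sec14l3 had 1076, 1177 and 522 CPM in LNP, 677, 633 and 629 CPM in bleomycin and 1409, 1496 and 1244 CPM in control libraries. Its log2 fold change in LNP against bleomycin was 0.52 (adjusted p = 0.24). For Tmem212 the LNP libraries held 26.2, 20.8 and 28.9 CPM, with replicate 3 the highest (log2 fold change 0.54 against bleomycin, adjusted p = 0.18). Tppp3, a marker of the cell type, had 331, 249.6 and 152 CPM in LNP, 151, 136 and 123 CPM in bleomycin and 516, 699 and 503 CPM in control libraries, and it was lower in LNP than in control by 1.23 (SE 0.26, adjusted p = 0.019). Ccdc153 had 56.7, 49.6 and 48.0 CPM in LNP, 27.9, 28.7 and 27.8 CPM in bleomycin and 62.8, 67.4 and 82.2 CPM in control libraries, so there LNP replicate 3 kept to its group.

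Regulators that start the multiciliated fate and multiply centrioles were less uniform. Of 17 tested, 9 fell with bleomycin, Plk4 rose and 7 did not pass, against 18.5% of all genes that fell and 15.2% that rose. Gmnc and Mcidas, geminin-family coactivators at the top of the program, had low levels. Gmnc had 0.472, 0.769 and 0.139 CPM in LNP, 0, 0.124 and 0.544 CPM in bleomycin and 3.31, 1.97 and 3.03 CPM in control libraries. Mcidas had 0.708, 0.344 and 0.645 CPM in LNP, 0.0655, 0.109 and 0.106 CPM in bleomycin and 0.914, 1.94 and 0.858 CPM in control libraries. The LNP libraries of Gmnc overlapped those of bleomycin, and those of Mcidas lay above them. Myb and Trp73, transcription factors of the early program, fell with bleomycin by 2.88 (SE 0.36, adjusted p = 0.00052) and 1.95 (SE 0.22, adjusted p = 0.00035), and Foxn4, Ccno, Deup1, Cdc20b and Rfx1 also fell. Mcidas, Myb, Deup1 and Trp73 rose with LNP against bleomycin, by 2.57 (adjusted p = 0.026), 1.89 (adjusted p = 0.017), 1.58 (adjusted p = 0.022) and 1.04 (adjusted p = 0.026). Gmnc had a log2 fold change of 1.03 in LNP against bleomycin (adjusted p = 0.56). Trp73 was also lower in LNP than in control (-0.91, adjusted p = 0.031). Rfx2, a factor of the box shown above, had a log2 fold change of 0.18 (adjusted p = 0.5) in bleomycin against control, and Rfx3 of -0.82 (adjusted p = 0.14). Plk4, the centriole kinase of all dividing cells, rose by 1.41 (adjusted p = 0.016). These genes other than E2f4, E2f5, Rfx1 and Rfx2 were named after their values were seen.

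Intraflagellar transport genes serve primary and motile cilia alike. Of 28 tested, 14 fell and 1 rose with bleomycin, with a median log2 fold change of -0.49, and 3 rose with LNP against bleomycin. Dync2li1 fell by 1.22 (SE 0.21, adjusted p = 0.0022), while Ift20 and Ift52 had log2 fold changes of 0.24 and -0.03 that did not pass. Cytoplasmic dynein and dynactin, used by every cell, had 1 of 19 genes lower (Dynll2) and 4 higher with bleomycin, and a median of 0.00. Over all genes tested, 18.5% fell and 15.2% rose with bleomycin, and 4.28% rose with LNP against bleomycin. The 4 higher genes lie near that share and are not read as a result about the list.

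Markers of other lung epithelium moved too. Over all genes tested, 18.5% fell and 15.2% rose with bleomycin, and 4.28% rose with LNP against bleomycin. With LNP against control, 3.08% fell and 4.95% rose. The lists below are short, and a count near these shares is not read as a result about a list. Of 13 club and secretory cell genes, 10 fell with bleomycin (median -2.14), 2 rose with LNP against bleomycin (median 1.17), and 8 were lower in LNP than in control. Their sum was 15150, 8527 and 8998 CPM in LNP, 6710, 7296 and 8067 CPM in bleomycin and 29360, 38290 and 34580 CPM in control libraries. LNP libraries thus stood nearer to bleomycin than to control in this sum, unlike LNP replicates 1 and 2 in the axoneme sum, and the difference between the lists was not tested. The list's median in LNP against bleomycin lay beside the 1.27 of the axoneme genes, so the sum and the median place the list differently. Scgb1a1, the club cell secretory protein, had 9082, 5175 and 4520 CPM in LNP, 5318, 5180 and 5250 CPM in bleomycin and 18370, 23470 and 21660 CPM in control libraries, with a log2 fold change of 0.25 in LNP against bleomycin (adjusted p = 0.57). Cyp2f2, a cytochrome P450 of club cells, had 1986, 1208 and 499.7 CPM in LNP, 238.8, 287 and 349 CPM in bleomycin and 4467, 5625 and 5181 CPM in control libraries, and it rose in LNP against bleomycin by 2.08 (SE 0.41, adjusted p = 0.021). Cbr2, a carbonyl reductase, had a log2 fold change of 1.01 in the same comparison (adjusted p = 0.066). Of 12 alveolar genes, 6 fell and 2 rose with bleomycin, and their sum was 26120, 22530 and 10340 CPM in LNP, 14920, 13950 and 12950 CPM in bleomycin and 28690, 35620 and 26890 CPM in control libraries. Of 8 genes of epithelium in general, 3 rose with bleomycin and 1 fell. Their median log2 fold change was -0.25, while their sum was above control, at 2321, 2446 and 2252 CPM in LNP, 3891, 3414 and 3039 CPM in bleomycin and 1656, 2079 and 1495 CPM in control libraries. Krt7, Krt8 and Krt18 rose by 1.69, 1.44 and 1.64 on the log2 scale, and Cdh1 had a log2 fold change of -0.35 (adjusted p = 0.29). Of 7 leukocyte genes, 2 rose and 4 fell with bleomycin. Of 7 basal cell genes, 0 were called in bleomycin against control, 1 rose in LNP against bleomycin and 2 in LNP against control. Krt5, Krt14 and Krt15 were highest in LNP replicate 3, at 58.6, 40.2 and 37.9 CPM. They had 9.07, 7.29 and 12.9 CPM in LNP replicate 1 and 1.93, 1.13 and 2.72 CPM in LNP replicate 2. Krt17 was highest in LNP replicate 1, at 3.76 CPM, with 0.966 CPM in replicate 2 and 1.585 CPM in replicate 3. The part of these cell types in the axoneme values was not tested.

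**Figure D4:**
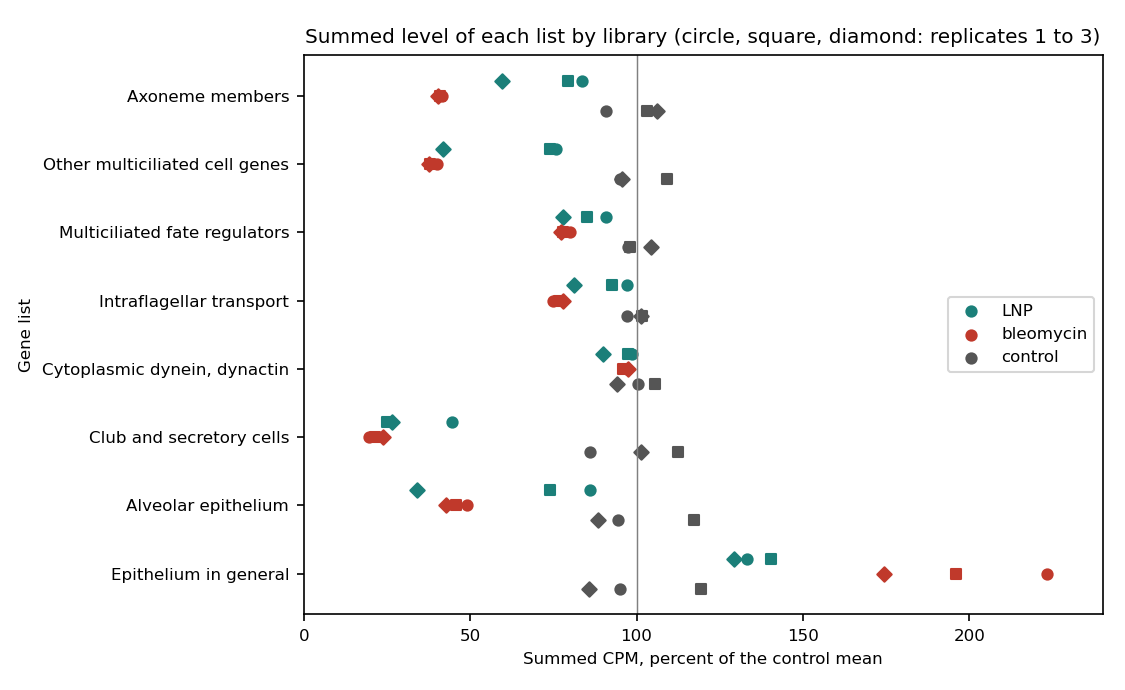
Summed CPM of the axoneme genes and of 7 other gene lists (rows) in each library, as percent of the control mean (horizontal axis), with a colour for each group and a marker shape for each replicate. The axoneme sum stands at 83.5%, 79.3% and 59.7% in LNP and at 41.5%, 40.8% and 40.2% in bleomycin libraries, while cytoplasmic dynein and dynactin stay between 89.8% and 105.5% and the sum of genes of epithelium in general lies at 129.2% or more in LNP and bleomycin libraries.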

How the data were processed

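Poly(A) RNA of whole mouse lung was sequenced as paired-end, strand-marked libraries, per the labels' protocols. The deposited files give counts of genes and of transcripts as whole numbers, and a further FPKM column for each gene that the authors scaled, per the file headers. Tools named in the submitters' processing notes are fastp, StringTie and edgeR, without versions. The aligner, the build and the use of the strand in counting were not given in the sources used here. Positions in the deposited table are therefore not printed, but they were used to find genes that overlap. Sequences are from RefSeq (GRCm38.p6) and were matched by gene identifier.

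Groups came from the labels. Gene counts of all 9 libraries were fitted in 1 model with edgeR 4.0.16 (R 4.3.3), TMM scaling, filterByExpr and the quasi-likelihood F test, with Benjamini-Hochberg adjustment over 20794 genes and calls at an adjusted p under 0.05. The filter left out 11877 genes. Adjusted p-values are this test's except where DESeq2 or limma is named. CPM use TMM-scaled library sizes. FPKM served for ratios between genes and in limma 3.58.1 on log2(FPKM + 1) as an alternative, with genes of a mean FPKM of at least 0.5. DESeq2 1.42.0, other scalings, no filter, fits of 2 groups, a replicate block and leaving out each library were others. The floor of 3 counts covers counting error only, while SEs include variation among libraries. No replicate pair of libraries agreed within sampling noise (the lowest chi-square per degree of freedom was 30.2). The scripts were tested on simulated counts with known changes in 100 genes at each fold. Of 2-fold changes, 31% were recovered in bleomycin against control, 28% in LNP against bleomycin and 23% in LNP against control. Of 4-fold changes, 88%, 87% and 82% were recovered, with 4 false calls in each comparison. Most 2-fold changes were thus missed. Python 3.11.15, pandas 2.3.3 and matplotlib 3.10.9 made tables and plots.

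Genes named by value were Foxj1, Hydin, Ccdc39, Ccdc40 and Dynlrb2, the 3 of each role and the 5 remaining genes with the highest mean FPKM, up to 8 genes per comparison called against the majority, the 3 largest rises and falls of each comparison with at least 0.5 CPM in the higher group, the near-identical copies, and up to 4 genes per list by FPKM. The set, its roles and the 11 gene lists were chosen with earlier results of these data known.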

Additional observations from a re-analysis of the deposited data

How the results depend on the processing

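For bleomycin against control, with 81 axoneme genes lower, 72 to 83 of the axoneme genes were lower in the alternatives that kept all libraries and 69 to 84 with a library left out, and 1 to 2 were higher with a library left out. For LNP against bleomycin the count of higher genes, 55, was 17 with only the 2 groups fitted, 16 with limma on unfiltered log2(FPKM + 1), 29 with the replicate number as a block and 1 to 75 with a library left out, and the count of lower genes, 0, was 1 with DESeq2 and 0 to 1 with a library left out. For LNP against control the count of lower genes, 5, was 15 with DESeq2, 3 with library-size scaling (added after seeing the data), 2 with only the 2 groups, 3 with the block, 0 with limma on log2(FPKM + 0.1), 0 with limma on unfiltered log2(FPKM + 1) and 0 to 6 with a library left out. Over all genes, LNP against bleomycin gave 1280 calls, and 3184 with DESeq2, 794 with no count filter, 318 with only the 2 groups, 432 with the block, 539 with unfiltered limma and 102 to 5284 with a library left out. LNP against control gave 1671 calls, and 3142 with DESeq2, 1010 with only the 2 groups and 717 to 2332 with a library left out. Bleomycin against control gave 7002 calls, and 4375 to 9102 with a library left out. The causes were not tested. The median log2 fold change of the axoneme genes kept its sign in each comparison under every alternative.

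The replicate numbers did not pair the libraries, since deviations of same-numbered libraries correlated at -0.018 to 0.040, so the block is given here only. Library-size scaling moved the median of all genes to -0.11 in bleomycin against control and to 0.16 in LNP against bleomycin, and the axoneme medians were then -1.80 and 1.39. Of 784 values of named genes under alternatives, 762 kept their call when bleomycin was set against control, 617 when LNP was set against bleomycin and 739 when it was set against control. With 3 libraries a group, a gene not called may still have changed.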
